A study of Mus musculus with 2 samples.

Results

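The 7 genes described here, called the members, span the route from a fibroblast growth factor (FGF) at the cell surface to the kinase ERK: the ligand Fgf4, the receptor Fgfr1, the adaptor Grb2, the RAS exchange factor Sos1, the MEK kinases Map2k1 and Map2k2, and the ERK kinase Mapk3. They were taken by symbol from a table of 14398 genes, in which each of them had 1 row. The table compares the RNA of 2 cultures of 46C, a line of mouse embryonic stem cells from the inner cell mass with GFP knocked into Sox1, a neural gene. The PB-ID2 culture carried a vector that overexpresses ID2, a helix-loop-helix protein that binds E proteins and keeps them off DNA, and the PB culture carried the empty vector. Both were grown in serum medium with leukemia inhibitory factor at passages 21 to 24, and the labels give neither a promoter for the transgene nor the number of clones. Each group had 1 library, so replicate error could not be measured and no test was possible, and "higher" and "lower" describe these 2 libraries. Values are the normalized values that the authors deposited, after both libraries had been set to a common distribution, so that read depth is unknown. In bulk RNA, fewer cells of a type and less RNA per cell cannot be told apart.

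In mouse embryonic stem cells FGF4 is secreted by the cells themselves and is known as the main source of ERK activity, which prepares them to leave self-renewal. The bound receptor dimerizes and phosphorylates docking proteins, and GRB2 then brings the exchange factor SOS1 to the membrane, where it loads RAS with GTP. RAS activates RAF kinases, RAF phosphorylates MEK1 (Map2k1) and MEK2 (Map2k2), and these phosphorylate ERK kinases, ERK1 (Mapk3) among them. Signal passes along this chain through protein contacts and phosphorylation, which RNA levels do not report.

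Promoter sequences from RefSeq (build GRCm38.p6, from 250 bases before to 50 bases after a transcript start) were matched for 5 of the 7 members, in 6 windows. E proteins, the binding partners of ID2, recognize the E-box CANNTG, so the windows were searched for it. Because the motif is its own reverse complement, a match counts for both strands, and any match to CAGGTG or CAGCTG is also one to CANNTG. Of 6 windows, 5 held the motif, beside 72.3% of all 32851 promoter windows of the same length. The ligand and both MEK genes are printed because they show a single match, a pair of matches and none, with CANNTG in capitals.
Fgf4 (chr7:144861136-144861435, plus strand): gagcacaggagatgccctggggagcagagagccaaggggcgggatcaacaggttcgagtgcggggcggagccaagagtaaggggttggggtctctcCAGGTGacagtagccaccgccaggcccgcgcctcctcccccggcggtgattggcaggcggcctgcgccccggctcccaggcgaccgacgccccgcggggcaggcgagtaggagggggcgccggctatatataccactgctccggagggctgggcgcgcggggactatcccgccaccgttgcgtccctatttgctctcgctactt
Map2k1 (chr9:64253556-64253855, minus strand): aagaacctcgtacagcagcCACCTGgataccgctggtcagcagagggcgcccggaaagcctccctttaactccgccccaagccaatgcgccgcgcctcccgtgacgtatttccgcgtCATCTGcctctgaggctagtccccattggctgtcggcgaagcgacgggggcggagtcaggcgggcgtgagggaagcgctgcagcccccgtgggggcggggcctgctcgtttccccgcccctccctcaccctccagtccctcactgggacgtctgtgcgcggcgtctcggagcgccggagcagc
Map2k2 (chr10:81105665-81105964, plus strand): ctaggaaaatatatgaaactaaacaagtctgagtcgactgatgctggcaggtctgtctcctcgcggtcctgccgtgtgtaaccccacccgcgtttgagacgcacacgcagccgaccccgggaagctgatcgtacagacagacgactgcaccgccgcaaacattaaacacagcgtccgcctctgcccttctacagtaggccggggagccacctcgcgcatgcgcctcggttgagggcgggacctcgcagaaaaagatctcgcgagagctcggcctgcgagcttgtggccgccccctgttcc
The Fgf4 window held 1 match, CAGGTG, a hexamer present in 20.2% of all windows on either strand. The Map2k1 window held 2 matches, CACCTG (the reverse complement of CAGGTG) and CATCTG, while the Map2k2 window held 0. Of the Grb2 windows, 1 held CAGCTG at 2 places, a hexamer present in 16.3% of all windows, and the other held CAGATG, while the Sos1 window held CAGTTG. These matches are descriptions of letters, and binding was not measured in this series.

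All 7 members were well above the bottom of the table, and their values in the PB-ID2 and PB libraries differed by less than 1.5-fold. Sos1 had the lowest mean of them, and 77.2% of all listed genes had a lower mean than it did. On the scale of log2(value + 1), the ratios of PB-ID2 over PB ran from -0.27 to 0.27, with 3 members higher, 4 lower and a median of -0.15. Of 12679 genes with a mean of at least 50 in the table, 5982 stood higher, 6534 lower and 163 equal, and their median was -0.00229. These calls count whole steps, the unit of which all values of a library are multiples (1.005 in PB-ID2, 0.995 in PB). Genes called equal thus had log2 ratios near 0.014. None of the 7 members was 2-fold apart, while 2.53% of all genes were higher by at least that size and 1.86% were lower. None was 1.5-fold apart either, beside 8.00% of all genes higher and 6.59% lower by that size.

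**Figure D1:**
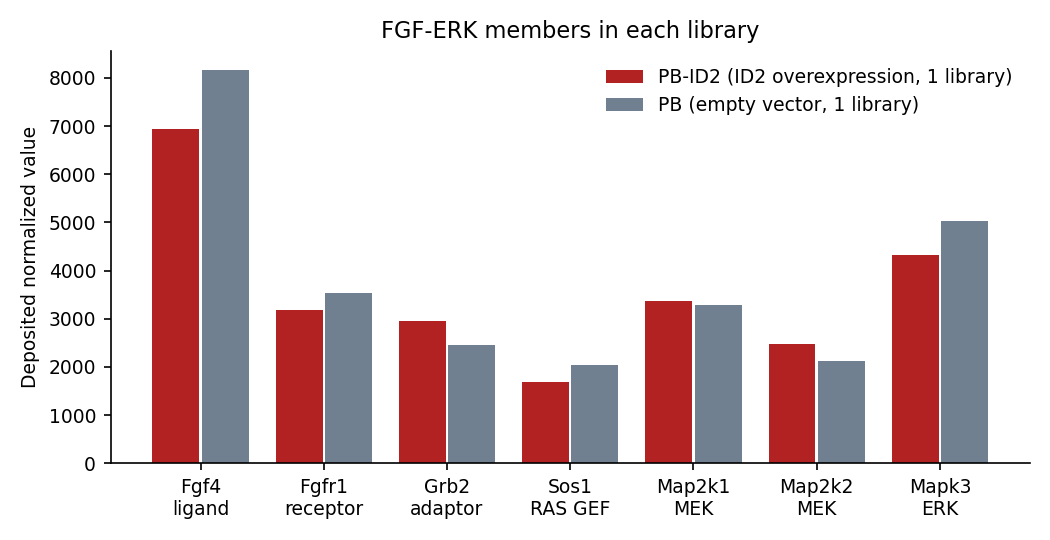
Deposited normalized value (vertical axis, starting at 0) of the 7 members in the PB-ID2 library (left bar of each pair) and the PB library (right bar), 1 library each, from ligand to ERK. Bars of a pair differ by less than 1.5-fold; heights of different genes are not corrected for length.

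Fgf4, the ligand, had a value of 6932 in the PB-ID2 library and 8157 in the PB library. Its ratio was 0.850-fold (log2 -0.23), so the PB-ID2 value was the lower of the 2. Ratios spread less at high levels, so each member was set beside the 1000 genes nearest to it in mean value. Around Fgf4 the middle 90% of log2 ratios ran from -0.37 to 0.44 and the middle 50% from -0.14 to 0.14, which places Fgf4 inside the wider range and outside the narrower one. Of the 7 members, 6 lay outside the middle 50% of genes of their level, and all 7 lay inside the middle 90%.

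Another 9 FGF genes were listed. Fgf17 stood at 633 in PB-ID2 and 499 in PB (log2 0.34), and Fgf11, an FGF that stays inside the cell, at 650 in PB-ID2 and 736 in PB (-0.18). Fgf15, known in mouse as a gut hormone, stood at 268 in PB-ID2 and 303 in PB (-0.17). Fgf1 had 118 in PB-ID2 against 136 in PB (-0.21), and Fgf3 had 96.5 in PB-ID2 against 122 in PB (-0.34). The other 4 lay near or under the floor of 50, where ratios spread most. Among them Fgf8 had 47.2 in PB-ID2 and 83.6 in PB, and Fgf13 had 36.2 in PB-ID2 and 67.7 in PB. Fgf10 had 84.4 in PB-ID2 and 47.8 in PB, and Fgf2 had 38.2 in PB-ID2 and 25.9 in PB. Of the 9 FGF genes above the floor, Fgf4 included, 2 were higher and 7 lower, with a median log2 ratio of -0.21, and none was 2-fold apart. The other 12 FGF genes looked for were not listed, and no level can be given for them.

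Fgfr1, the main FGF receptor of these cells, had 3185 in PB-ID2 and 3531 in PB, a ratio of 0.902-fold (log2 -0.15). Among the genes nearest in level the middle 50% ran from -0.14 to 0.15, and Fgfr1 lay just below it. The other receptors were further apart and all lower in PB-ID2. Fgfr4 had 350 in PB-ID2 and 561 in PB (log2 -0.68), and Fgfr3 had 106 in PB-ID2 and 251 in PB (log2 -1.24). For Fgfr4 the middle 90% of genes of its level ran from -0.62 to 0.75, and for Fgfr3 from -0.92 to 1.03, so both lay below the range. Fgfrl1, a receptor without a kinase domain, had 438 in PB-ID2 and 611 in PB (-0.48), inside the range of -0.62 to 0.67. Fgfr2 was under the floor, with 16.1 in PB-ID2 and 35.8 in PB. In the authors' deposited table Fgfr3 has a p of 0.0561 and Fgfr4 a p of 0.127, with an adjusted p of 1 for each; these p-values rest on no replicates. Of the 4 listed receptor genes above the floor, all 4 were lower and 1 was at least 2-fold lower, a size reached by 1.86% of all genes, with a median of -0.58. Fibroblast or feeder markers, of which 4 of 10 were listed, were also lower, with summed values of 1342.5 in PB-ID2 and 2114 in PB, and their part in the receptor values was not tested.

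**Figure D2:**
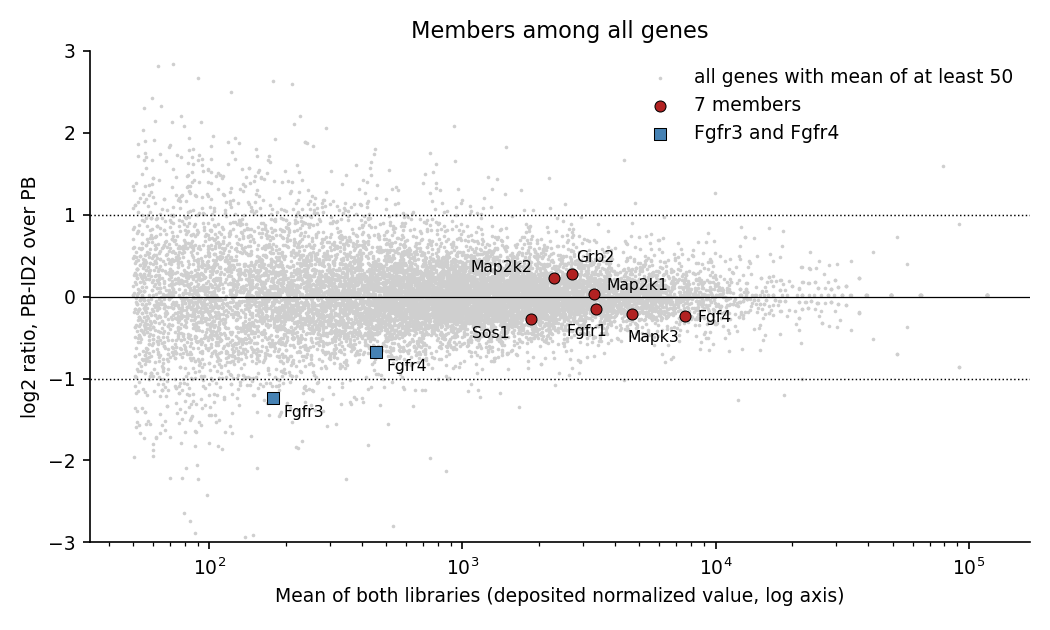
Log2 ratio of PB-ID2 over PB (vertical axis) against the mean of both libraries (horizontal log axis) for 12679 genes with a mean of at least 50 (grey), the 7 members (red circles) and Fgfr3 and Fgfr4 (blue squares); dotted lines mark a 2-fold difference, and 7 genes beyond 3 on the vertical axis are not drawn. The members sit between -0.27 and 0.27, while Fgfr3 (-1.24) lies past the 2-fold line.

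Levels of different genes were compared per kilobase of merged exons (GENCODE M21, basic set). On that scale the PB-ID2 library had 611 for Fgfr1, 105 for Fgfr4, 24.0 for Fgfr3 and 3.14 for Fgfr2, and the PB library had 677 for Fgfr1, 169 for Fgfr4, 57.0 for Fgfr3 and 7.0 for Fgfr2. The order of the 4 receptors was the same in both libraries. Fgfr1 thus made up 82.2% of the summed receptor signal per kilobase in PB-ID2 and 74.4% in PB. With coding length in place of exon length, its share was 86.1% in PB-ID2 and 79.4% in PB. Exons of Fgfr1 overlap an antisense RNA over 164 bases and those of Fgfr3 a gene on the other strand over 437 bases, and the library kit does not keep strand. Exons of Fgfr2 overlap a gene on the same strand over 314 bases.

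Heparan sulfate chains hold FGF on its receptor, and genes that make or carry them were listed for 22 of 27 names. Their median log2 ratio was 0.07, with 13 higher, 8 lower and 1 equal, and none was 2-fold apart. The sulfotransferase Hs2st1 had 1164 in PB-ID2 and 654 in PB (0.83), and Extl2, a glycosyltransferase, had 179 in PB-ID2 and 111 in PB (0.68). The core proteins Sdc4 (1974 in PB-ID2, 3782 in PB, -0.94) and Gpc3 (931 in PB-ID2, 1540 in PB, -0.73) were lower. These genes were named for the size of their ratios, and neither the enzymes nor the core proteins all went in a single direction. For example, the core protein Gpc4 (0.44) was higher and the enzyme Extl1 (-0.32) lower. The authors' deposited table gives Sdc4 an adjusted p of 0.245.

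Grb2, the adaptor that couples receptor docking sites to SOS, had 2957 in PB-ID2 and 2444 in PB. The ratio of 1.21-fold (log2 0.27) was the highest of the 7 members. Among genes of its level the middle 90% ran from -0.40 to 0.47 and the middle 50% from -0.15 to 0.16. The processed pseudogene Gm12791 matches Grb2 transcripts at 98.0% identity over 655 bases, so how reads were shared between them could affect the Grb2 value.

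Of 13 adaptor and docking genes above the floor, Grb2 included, 8 were lower and 5 higher (median -0.02). Crk, an adaptor that binds phosphotyrosine, had 3402 in PB-ID2 and 2239 in PB (0.60), and Shc1, which recruits GRB2 to receptors, had 4860 in PB-ID2 and 3861 in PB (0.33). Frs3 (684 in PB-ID2, 877 in PB, -0.36), a docking protein of FGF receptors, and Gab1 (5475 in PB-ID2, 6685 in PB, -0.29), a scaffold bound by GRB2, were lower. Adaptors therefore stood on either side of 0, and none was 1.5-fold apart except Crk.

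Sos1, the exchange factor that GRB2 carries, had 1682 in PB-ID2 and 2035 in PB. Its ratio of 0.827-fold (log2 -0.27) was the lowest of the 7 members, opposite in direction to that of Grb2. The middle 90% of genes of its level ran from -0.41 to 0.52. Its paralog Sos2 had 291 in PB-ID2 and 248 in PB (0.23), so the pair differed in direction. Per kilobase, Sos1 made up 79.3% of the summed signal of the pair in PB-ID2 and 84.5% in PB. Among the other exchange factors, Rasgrp4 had 699 in PB-ID2 and 831 in PB (-0.25). Rasgrp1, close to the floor, had 38.2 in PB-ID2 and 69.7 in PB (-0.85). In the list of 6, the median was -0.20, with 2 higher and 4 lower.

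No RAS or RAF gene is among the 7 members, but they join Sos1 to the MEK kinases. Of the RAS genes, Nras had 3559 in PB-ID2 and 3780 in PB (-0.09), and Hras had 1484 in PB-ID2 and 1293 in PB (0.20). Mras, a relative that acts with SHOC2 on RAF, had 3437 in PB-ID2 and 2044 in PB (0.75), the largest ratio of 5 RAS-family genes; Rras stood at -0.36. The authors' deposited table gives Mras an adjusted p of 0.776. GTPase-activating proteins, which switch RAS off, showed 5 of 9 higher and 4 lower, with Rasal2 (0.41) and Rasa4 (-0.36) furthest apart, and a median of 0.07.

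The RAF kinases Araf and Braf were slightly lower in PB-ID2. Araf had 2437 in PB-ID2 and 2764 in PB (-0.18), and Braf had 2048 in PB-ID2 and 2243 in PB (-0.13). Scaffolds of the module were more spread, with Ksr1, which holds RAF, MEK and ERK together, at 685 in PB-ID2 and 472 in PB (0.54), and Ksr2 at 105 in PB-ID2 and 76.6 in PB (0.44). Cnksr1, another scaffold, had 90.4 in PB-ID2 and 131 in PB (-0.53). Of 20 genes for RAF kinases, scaffolds and other partners of the module, 11 were lower, 6 higher and 3 equal (median -0.01). The equal genes included a chaperone gene that stood at the highest value of the table in both libraries.

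Map2k1, which encodes MEK1, had 3358 in PB-ID2 and 3278 in PB. The ratio of 1.02-fold (log2 0.03) was the closest to 1 of the 7 members and the only one inside the middle 50% of genes of its level, which ran from -0.14 to 0.15. Map2k2, which encodes MEK2, had 2472 in PB-ID2 and 2118 in PB, a ratio of 1.17-fold (log2 0.22). For Map2k2 the middle 90% of genes of its level ran from -0.41 to 0.49 and the middle 50% from -0.15 to 0.16. Both MEK genes were thus the higher in PB-ID2, by different amounts.

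Per kilobase of merged exons, Map2k1 stood at 1379 in PB-ID2 and 1346 in PB, and Map2k2 at 1028 in PB-ID2 and 881 in PB. Map2k1 was the higher of the pair in both libraries, and Map2k2 made up 42.7% of the pair in PB-ID2 and 39.6% in PB. The sum of the pair was 2406 in PB-ID2 and 2226 in PB, a log2 ratio of 0.11. Coding length gave Map2k2 a share of 41.9% in PB-ID2 and 38.8% in PB.

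Mapk3, which encodes ERK1, had 4322 in PB-ID2 and 5028 in PB. Its ratio of 0.860-fold (log2 -0.22) lay below the middle 50% of genes of its level, from -0.14 to 0.14, and inside the middle 90%, from -0.35 to 0.43. Mapk3 was thus lower in PB-ID2 while both MEK genes were higher, each by less than 1.5-fold. Per kilobase of merged exons Mapk3 stood at 2147 in PB-ID2 and 2498 in PB, and per kilobase of coding sequence at 3545 in PB-ID2 and 4124 in PB.

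Set on the scale of merged exons, the order of the 7 members was the same in both libraries. In PB-ID2 it ran from Fgf4 (2288 per kilobase) through Mapk3 (2147), Map2k1 (1379), Map2k2 (1028), Grb2 (1024) and Fgfr1 (611) to Sos1 (199). In PB it ran from Fgf4 (2692 per kilobase) through Mapk3 (2498), Map2k1 (1346), Map2k2 (881), Grb2 (847) and Fgfr1 (677) to Sos1 (241). Map2k2 and Grb2 were close to each other in each library, and no spread was measured by which neighbours could be told apart. Per kilobase of coding sequence Fgf4 again stood highest and Fgfr1 and Sos1 lowest, while Grb2, with 4543 in PB-ID2 and 3754 in PB, stood next after Fgf4 in PB-ID2 and below Mapk3 in PB.

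**Figure D3:**
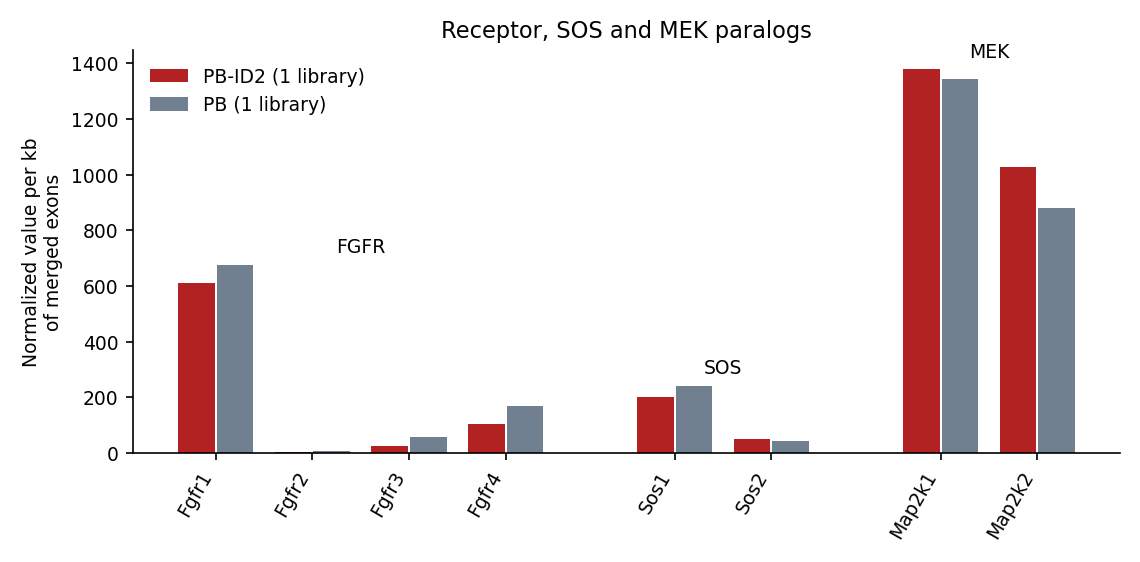
Deposited normalized value per kilobase of merged exons (vertical axis, starting at 0) for the FGF receptor, SOS and MEK paralogs in the PB-ID2 library (left bars) and the PB library (right bars), 1 library each. Fgfr1 and Sos1 stand far above their paralogs, and Map2k1 stands above Map2k2 in each library.

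In the order of the cascade, the sums per kilobase of the paralogs had log2 ratios of -0.29 for the 4 FGF receptors, -0.18 for the SOS pair and 0.11 for the MEK pair. With Fgf4 (-0.23), Grb2 (0.27) and Mapk3 (-0.22) placed in that order, the ratios did not rise steadily. Downstream, 17 feedback inhibitors and ETV factors above the floor, many of which ERK signaling is known to induce, had 11 higher and 6 lower. Their median was 0.45, and 4 were at least 2-fold higher, beside 2.53% of all genes. Those 4 were Spry4 (1.76), Dusp6 (1.65), Dusp5 (161 in PB-ID2, 55.7 in PB, 1.51) and Spred3 (340 in PB-ID2, 161 in PB, 1.07). Among the 6 lower genes the lowest ratio was -0.81, and 0 genes of the list were at least 2-fold lower. In the authors' deposited table Spry4 and Dusp6 each have an adjusted p of 0.00671, and Dusp5 and Spred3 each have 1, again without replicates. Members and feedback genes were measured in the same 2 libraries, and a difference between the lists was not tested.

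**Figure D4:**
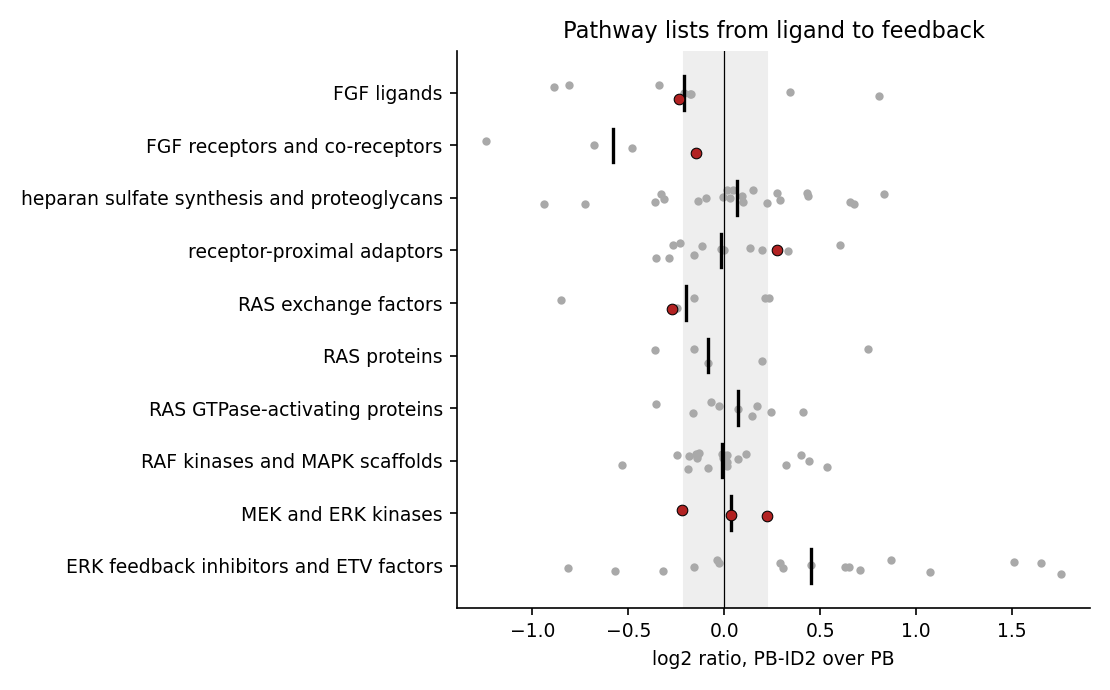
Log2 ratio of PB-ID2 over PB (horizontal axis) for each gene with a mean of at least 50 in 10 lists ordered from ligand to feedback; red points are the 7 members, black ticks are list medians, and the grey band is the middle 50% of all genes (-0.21 to 0.22). The lowest list median is -0.58 for receptors and the highest is 0.45 for feedback inhibitors and ETV factors, without a steady rise along the order drawn.

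In the authors' deposited table the p-values of the 7 members lay between 0.348 (Grb2) and 0.904 (Map2k1), and all 7 had an adjusted p of 1; 26 genes of the whole table had an adjusted p under 0.05. Id2 itself stood at 26225 in PB-ID2 and 324 in PB (log2 6.33), the direction the labels give. The labelled cell type was checked by 10 embryonic stem cell markers, among them Pou5f1, Sox2 and Nanog, all listed, with summed values of 156637 in PB-ID2 and 132124 in PB. For primitive endoderm 7 of 10 were listed, with sums of 9888 in PB-ID2 and 9049 in PB that rest mostly on Lama1 and Col4a1. Within that list Sox7 had 127 in PB-ID2 and 16.9 in PB (log2 2.83), while Gata4 had 76.4 in PB-ID2 and 146 in PB (-0.93). For formative or primed epiblast 5 of 8 were listed (2999 in PB-ID2, 2907 in PB), with sums that rest mostly on Dnmt3b (-0.16). Of these 5 genes, 3 were higher and 2 lower, with a median log2 ratio of 0.42. For neural cells 5 of 8 were listed (2642 in PB-ID2, 2155 in PB), with Sox1 (1.02) and Tubb3 (0.56) higher, Nes (-0.88), Neurod1 (-0.68) and Map2 (-0.52) lower, and a median log2 ratio of -0.52. No listed marker was at 0, but nor was any other listed gene, as the lowest value in each library was 4 steps. Markers not listed have no level, and the part of these marker differences in the values above was not tested.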

How the data were processed

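RNA sequencing of 2 libraries, 1 of PB-ID2 and 1 of PB cells, was analysed from the authors' deposited gene table. Per the labels' protocols, Trizol was used for RNA extraction and a TruSeq RNA v2 kit for the libraries; kits of this kind do not keep strand. The submitters' processing notes name STAR, DESeq and build mm9; tool versions and the annotation are not given in the sources consulted. Per the file headers, the authors deposited a normalized signal value per gene and library, their mean, a fold (the ratio of PB-ID2 over PB), the log2 of that fold, and p-values with and without adjustment. All signal values were whole multiples of a step, within 0.01 of a step, and the sorted multiples of both libraries were identical at all 14398 ranks. Read depth cannot be had from such values, so no counting interval is given.

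Log2 ratios used a pseudocount of 1 (Python 3.11.15, pandas 2.3.3), which understates ratios of low genes. Counts used 12679 genes with a mean of at least 50, and genes were called higher, lower or equal by whole steps, as decided once the values were known. With 1 library per group no test was run. The 2-fold rule was tried on simulated data whose changed genes were set well past 2-fold, with noise narrower than the spread seen here. That run cannot give an error rate for these libraries. Exon and coding lengths, exon overlaps and similar transcripts (at least 95% identity over 100 bases) came from GENCODE M21 (GRCm38); coding length was an alternative added after seeing the data. The other alternatives changed the pseudocount (0.1, 10), the scaling, the floor (none, 250), the fold (1.5, 4) or took the authors' log2 column. The members, 12 pathway lists and 5 marker lists were chosen with earlier results of these data known. Named genes were the members, their closest paralogs, RAS and RAF genes, every listed FGF gene, and up to 4 genes per list with the largest absolute ratio. Of the genes that this rule names, 3 are not reported here and enter no list, sum or share.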

Additional observations from a re-analysis of the deposited data

How the results depend on the processing

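The log2 ratios of the 7 members shifted by at most 0.0023 under the pseudocounts, the rescaling and the authors' deposited log2 column, which could hardly move genes at these levels, and 0 members passed a fold of 1.5, 2 or 4. Of 256 recomputed values 244 stayed within the tolerances (0.1 on the log2 scale, 1.5 times for a count) and 12 moved. With no floor, the 2-fold rule counted 551 higher and 470 lower genes, and the receptor median was -0.68. With a floor of 250 it counted 105 higher and 53 lower genes, the receptor median was -0.48, and of the FGF genes 1 was higher and 3 lower. A fold of 1.5 gave 1014 genes higher and 835 lower, and a fold of 4 gave 23 and 18. The lower floor adds low genes, where ratios spread most, and the higher one removes them. With coding length, 2 of 16 shares of a paralog in its family moved by over 5 points, those of Sos1 (85.4%) and Sos2 (14.6%) in PB-ID2. No paired analysis was possible because each group had 1 library. Read depth is unknown, and a difference of the size seen for the members cannot be set against a spread between cultures.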

Other observations

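Kinases of the other MAPK modules stood on either side of 0. Of 16 such genes, 6 stood higher and 10 lower in PB-ID2, with a median log2 ratio of -0.07. Mapk4, which encodes the atypical kinase ERK4, had 213 in PB-ID2 and 106 in PB (0.99), and Mapk13, a p38 kinase, had 388 in PB-ID2 and 749 in PB (-0.95). Mapk8, which encodes JNK1, had 926 in PB-ID2 and 1148 in PB (-0.31), and Mapk7, which encodes ERK5, had 1879 in PB-ID2 and 1570 in PB (0.26).

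Of 12 genes for kinases and transcription factors that ERK phosphorylates or that belong to the same families, 3 were lower and 9 higher (median 0.19). Elk3, a ternary complex factor that represses targets of serum response factor until ERK acts on it, had 560 in PB-ID2 and 289 in PB (0.95). Rps6ka3, which encodes RSK2, had 866 in PB-ID2 and 631 in PB (0.46), and Mknk1, a kinase of the translation factor eIF4E, had 956 in PB-ID2 and 734 in PB (0.38). Rps6ka4 stood at 525 in PB-ID2 and 669 in PB (-0.35). On the scale of log2(value + 1), none of the genes in either list was 2-fold apart. In the authors' deposited fold, which adds no pseudocount, Mapk4 lay just past 2-fold higher in PB-ID2.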
